A study of Mus musculus with 9 samples.

Results

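Genes that NF-kB switches on in inflammation were examined in kidneys of mice that carry 1 of 2 knock-in alleles of Nfkb1. The set was 10 genes chosen by name: the adhesion molecules Icam1 and Vcam1, the cytokines Csf1, Tnf and Il1b, the receptor Tlr2, the signalling adaptor Traf1, the enzymes Sod2 and Mmp9, and the transcription factor Irf1. All 10 were among the 52636 genes of the deposited tables, each under 1 identifier, and 9 of them were among the 17114 genes with enough reads to be tested. Tnf was not.

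Kidney RNA was sequenced in 9 libraries, with 3 of C59A, 3 of C59S and 3 of wild type (WT). C59A and C59S replace the codon of a single cysteine of Nfkb1, whose product is processed to the DNA-binding subunit p50. Both knock-in lines share a PGK-neo selection cassette left in an intron of the gene. They were made in C57BL/6NTac-derived embryonic stem cells injected into C57BL/6 blastocysts, and the labels give no age, sex or zygosity. The genotype labels name C59A as activated and C59S as inactivated NF-kB, whereas the design text pairs its terms for weaker and stronger DNA binding the other way round, so no direction was assumed. Nothing in the labels says that the libraries of a genotype came from separate animals, so each p-value reflects the spread among these libraries and that spread could be technical.

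NF-kB is a family of dimeric transcription factors that IkB proteins hold in the cytoplasm of resting cells. Cytokines, bacterial products and tissue injury free the dimers to enter the nucleus, where they bind short kB sites and raise the transcription of cytokine, adhesion and survival genes. The p50 subunit has no transactivation domain of its own, so p50 dimers with RelA activate genes while p50 homodimers can repress them. In kidney, endothelial cells, tubule cells under stress and resident or infiltrating leukocytes are among the cells that express such targets.

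Promoter windows show where a kB-like sequence lies near the start of these genes. RefSeq windows on GRCm38.p6, from 250 bases before to 50 bases after the transcription start, were found for 8 of the 10 genes (9 windows, with 2 for Irf1). Windows of Vcam1 and Mmp9 were not used here. The search used GGNNNTTCC, the core of many kB sites, on both strands, and a looser pattern, GGG and CC with any 5 bases between them, also on both strands, which can overlap the first. The core was present in windows of 4 of the 8 genes (Icam1, Csf1, Tlr2 and Tnf) and in 18.5% of all 32851 windows. The looser pattern was present for 6 of the 8 genes, the same 4 with Sod2 and Irf1, and in 50.8% of all windows. Neither was found for Traf1 or Il1b. A match is a description of the letters and not a site shown to bind. The stretches below carry 20 bases on each side of the matches, read 5′ to 3′ on the strand of the gene, with the matched letters in capitals. For Icam1 both core matches are shown (chr9:21015767-21015884, plus strand), the first 153 bases before the start and the second, which matches on the opposite strand, 84 bases before it. The other stretches are Csf1 (chr3:107760595-107760643, minus strand, 154 bases before the start, a match on the strand opposite to the gene), Tlr2 (chr3:83841751-83841800, minus strand, 2 overlapping core matches, 1 on each strand, the first 172 bases before) and Tnf (chr17:35202191-35202239, minus strand, 212 bases before). The Irf1 stretch (chr11:53769981-53770030, plus strand) shows the match of the looser pattern closest to the start, 13 bases before it. Distances are from the RefSeq start of each window, which can differ from the gene coordinates given below. The Tlr2 stretch spans position 83841767, where the gene starts by those coordinates.
Icam1: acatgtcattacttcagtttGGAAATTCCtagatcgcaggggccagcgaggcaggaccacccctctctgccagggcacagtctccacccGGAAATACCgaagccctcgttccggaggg
Csf1: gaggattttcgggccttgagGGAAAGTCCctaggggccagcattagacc
Tlr2: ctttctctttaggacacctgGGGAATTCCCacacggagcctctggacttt
Tnf: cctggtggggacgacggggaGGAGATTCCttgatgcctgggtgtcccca
Irf1: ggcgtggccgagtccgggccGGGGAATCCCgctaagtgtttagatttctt
The stretches hold the core matches of the 4 genes that have them, and 1 looser match of Irf1, which was chosen by hand. Other looser matches are not printed, among them GGGGTTCCCC of Sod2, 83 bases before the start. The 5 genes with a printed stretch include Csf1, the member furthest from WT by p, and Tnf, the member with the fewest reads.

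Total counts per library ran from 16367403 to 25787659. Levels are given as CPM, counts relative to the library total after scaling with TMM factors. The level of 3 counts, the limit that a count of 0 allows, was 0.112 CPM in the deepest library and 0.202 CPM in C59S replicate 3. The proximal tubule genes Slc34a1 and Lrp2 were at 3157 CPM or more and 585 CPM or more in all 9 libraries, both defining genes of the labelled tissue. The mitochondrial share was 20.8 to 28.8% in C59A, 20.5 to 40.6% in C59S, with replicate 3 at the top, and 16.4 to 19.6% in WT. The 3 C59A libraries held the Y-linked gene Uty at 18.3 to 20.1 CPM and Xist at 0.191 to 0.724 CPM. Xist stood at 884 to 894 CPM in C59S and at 815 to 1274 CPM in WT, with Uty at or below 0.539 CPM in C59S and at 0 reads in WT. Of a list of 5 sex-linked genes, 4 were at 0 reads in WT replicates 1 and 2, and 2 in WT replicate 3. In C59S 4 were at 0 reads in replicate 2 and 0 in replicates 1 and 3, so Y-linked reads were not wholly absent outside C59A. In every comparison with C59A, the allele and the sex-linked difference between the libraries cannot be told apart. Nfkb1 itself averaged 33.3 ± 5.62 CPM in C59A, 38 ± 1.47 CPM in C59S and 34.2 ± 2.32 CPM in WT (SD, n = 3 each), and did not pass the test in any comparison.

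**Figure D1:**
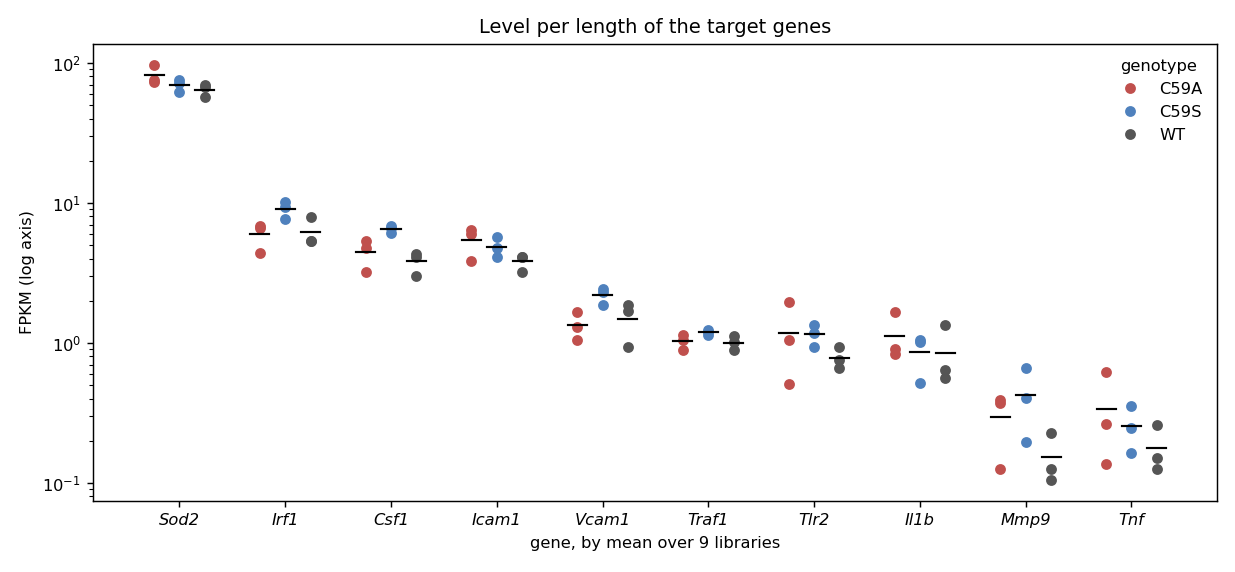
FPKM of the 10 genes on a log axis, ordered by their mean over 9 libraries. Points are libraries and black bars the mean of each genotype. Sod2 stands alone at the top in every library, and Mmp9 and Tnf lie at the bottom.

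The deposited FPKM values, which divide by gene length and so allow levels of different genes to be compared, set the members in an order. Sod2, the mitochondrial manganese superoxide dismutase, was the most abundant, with a mean of 71.8 FPKM and a range of 56.6 to 97 FPKM over the 9 libraries. Irf1 (7.08 FPKM), Csf1 (4.92) and Icam1 (4.69) followed, Vcam1 (1.68), Traf1 (1.08), Tlr2 (1.03) and Il1b (0.946) came next, and Mmp9 (0.29) and Tnf (0.257) were lowest. Sod2 exceeded Irf1, Irf1 exceeded Csf1, Icam1 exceeded Vcam1 and Il1b exceeded Mmp9 in all 9 libraries. Csf1 exceeded Icam1 in 5 of 9, Tlr2 exceeded Il1b in 5 of 9, and Mmp9 exceeded Tnf in 3 of 9, so these neighbours could not be ordered beyond their spread. Vcam1 was above Traf1 in 8 of 9 libraries and Traf1 above Tlr2 in 7 of 9. The order was the same at ranks 1 and 2 in all 3 genotypes, while Csf1 ranked above Icam1 in C59S and WT and below it in C59A.

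No member was called in any of the 3 comparisons by the quasi-likelihood test of edgeR, with p-values adjusted over 17114 genes by Benjamini-Hochberg and a threshold of 0.05. Between C59A and WT 0 of 9 members passed, beside 5.7% of all genes tested (3.24% higher and 2.46% lower in C59A). Between C59S and WT 0 of 9 passed, and 0% of all genes did, while a fit of these 2 groups paired by replicate number called 1 of 9, Csf1, beside 3.82% of all genes. That pairing was chosen from correlations in these same libraries, and the labels state no pairing. Between C59A and C59S 0 of 9 passed, beside 5.91% (3.35% higher and 2.56% lower in C59A). With so few members, a count of 0 lies near these backgrounds. At an unadjusted p under 0.05 the members numbered 1 of 9 in C59A against WT (background 21%), 4 of 9 in C59S against WT (18.1%) and 3 of 9 in C59A against C59S (22.9%). The 1 in C59A against WT was higher in C59A (10.3% of all genes higher, 10.7% lower). All 4 in C59S against WT were higher in C59S (8.23% higher, 9.83% lower), and all 3 in C59A against C59S were lower in C59A (11% higher, 11.9% lower). Without C59A replicate 3 these 3 became 0 of 10, with Tnf then among the genes tested, beside 3014 of all 17595 genes. DESeq2 called 0, 1 and 0 members in the 3 comparisons, beside 5.01%, 2.03% and 5.5% of the 31298 genes it fitted. These include genes below the count filter, so the shares are not on the same footing as those of edgeR. With limma voom and quality weights 0 members were called in each, beside 5.99%, 0% and 7.03%. The 2 comparisons against WT share the WT libraries.

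**Figure D2:**
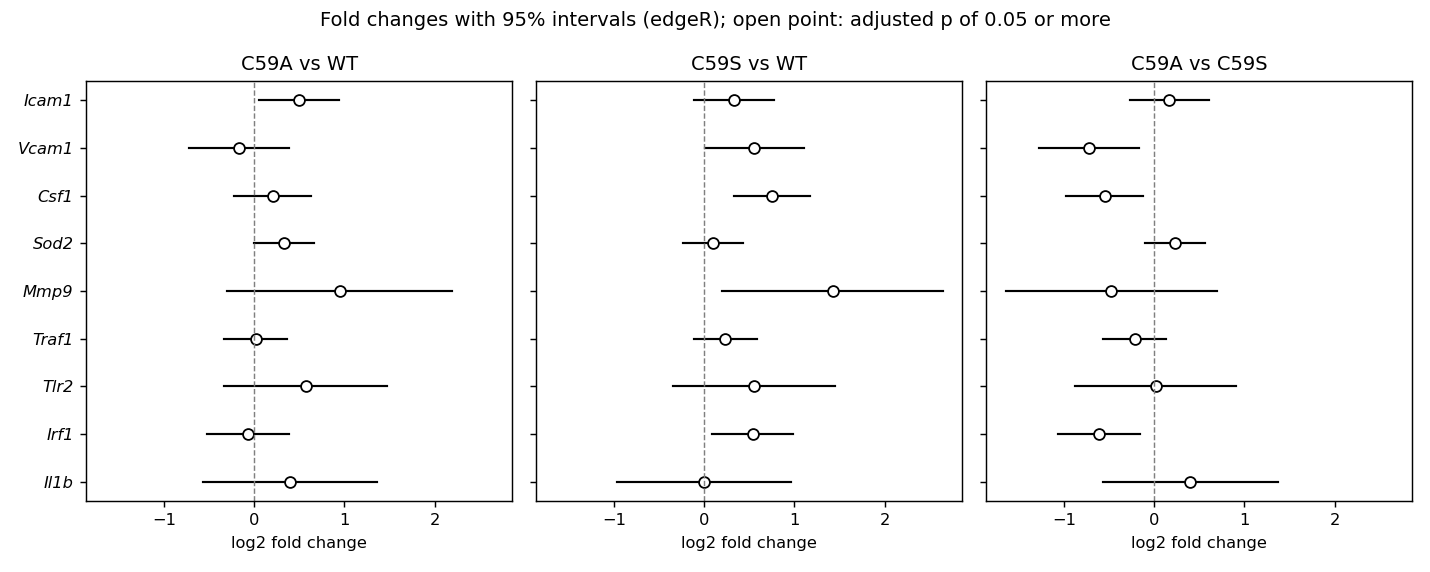
Log2 fold change of the 9 tested genes in the 3 comparisons, with 95% intervals from edgeR. Every point is open (adjusted p of 0.05 or more). The intervals of Icam1 in C59A against WT and of Csf1, Irf1, Mmp9 and Vcam1 in C59S against WT lie above 0, and those of Vcam1, Csf1 and Irf1 lie below 0 in C59A against C59S.

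The medians of the members describe their direction. With C59S set against WT, 8 of 9 had positive fold changes, with a median log2 fold change of 0.54, beside 51.1% positive and a median of 0.01 over all genes. In C59A against WT 7 of 9 were positive, with a median of 0.33, beside 47.6% and -0.02. Scaled by library totals alone, 5 of 9 were positive there, with a median of 0.09, beside -0.26 over all genes. In C59A against C59S 4 of 9 were positive, with a median of -0.22, beside 49% and -0.01. Without C59A replicate 3, or without C59S replicate 3, that median was -0.06 over 10 members, with Tnf added to the 9. Over the same 9 the middle value was -0.225 (Traf1) without C59A replicate 3. It was -0.108 (Tlr2) without C59S replicate 3. For C59S against WT the members of smallest p were Csf1, Irf1, Mmp9 and Vcam1, and for C59A against WT they were Icam1 and Sod2.

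Icam1 and Vcam1 are adhesion molecules that hold leukocytes on endothelium through beta2 and alpha4 integrins. Icam1 (ENSMUSG00000037405, GRCm38 chromosome 9, 21015985 to 21028817, plus strand) was read at 28.3, 26.7 and 16.8 CPM in C59A, 18.1, 25 and 20.7 CPM in C59S, and 14.3, 18.3 and 18.2 CPM in WT. C59A replicates 1 and 2 were the highest of all 9, while C59A replicate 3 lay inside the WT range, so the groups overlapped. The log2 fold change of C59A against WT was 0.50 ± 0.20 (SE), with a 95% interval of 0.06 to 0.94 and adjusted p = 0.184 by edgeR. Without C59A replicate 3 it was 0.70 with adjusted p = 0.0566. Set against WT, C59S gave 0.33 ± 0.20 (interval -0.11 to 0.77, edgeR adjusted p = 0.406), and between C59A and C59S 0.17 ± 0.20 (-0.27 to 0.60, edgeR adjusted p = 0.672).

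Vcam1 (ENSMUSG00000027962, chromosome 3, 116109949 to 116129688, minus strand) stood at 11.6, 15.1 and 9.28 CPM in C59A, 16.9, 20.6 and 21.8 CPM in C59S, and 8.42, 15.2 and 16.8 CPM in WT. All 3 C59S libraries lay above all 3 C59A libraries and, by a small margin, above all 3 WT libraries. The fold change of C59A against C59S was -0.72 ± 0.25 on the log2 scale (interval -1.28 to -0.17), with adjusted p = 0.122 by edgeR over all 9 libraries and 0.0482 in a fit of these 2 groups alone. In that fit of 2 groups 7.59% of all genes passed. C59S against WT gave 0.55 ± 0.25 (interval 0.004 to 1.10, edgeR adjusted p = 0.274), and 0.30 without WT replicate 1 (adjusted p = 0.584). C59A against WT gave -0.17 ± 0.25 (edgeR adjusted p = 0.77), and the sign turned to 0.03 without WT replicate 3. An antisense RNA overlaps each of the 2 genes, and these antisense genes held at most 4 reads (AC159314.1 at Icam1) and 1 read (Gm43109 at Vcam1).

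Endothelial markers, like Vcam1, were highest in the C59S libraries. The summed level of 10 endothelial genes was 500 to 557 CPM in C59A, 819 to 1155 CPM in C59S and 322 to 754 CPM in WT. In C59A against C59S all 10 had negative fold changes, with a median of -0.85 on the log2 scale. The test was passed by 2 of 10, both lower in C59A (Pecam1 and Cdh5), beside 5.91% of all genes. Both calls were lost without any 1 of the C59A libraries (edgeR adjusted p of 0.0721 to 0.17), without C59S replicate 2 (0.0762 and 0.0817) or 3 (0.143 and 0.158) and without WT replicate 1 (0.066 and 0.0772). Set against WT, C59S had all 10 positive, with a median of 0.81, and 0 of 10 passed by edgeR, beside 0% of all genes. At an unadjusted p under 0.05 were 7 of the 10, beside 18.1% of all genes. None of the 10 was at 0 reads in any library. The part of the endothelial markers in the Vcam1 and Icam1 values was not tested, and in whole-kidney RNA fewer cells of a type and less RNA per cell cannot be told apart.

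Csf1, the growth factor that keeps macrophages alive through the receptor Csf1r, was the member with the smallest p. Csf1 (ENSMUSG00000014599, chromosome 3, 107741048 to 107760469, minus strand) was read at 28.6, 25.7 and 16.9 CPM in C59A, 32.5, 35.3 and 36.2 CPM in C59S, and 22.3, 16.1 and 23.3 CPM in WT. The 3 C59S libraries were close together and lay above the other 6. The log2 fold change of C59S against WT was 0.75 ± 0.19 (interval 0.33 to 1.18, a fold of 1.69), with unadjusted p = 0.00227 and adjusted p = 0.133 by edgeR. In a paired fit, which holds the C59S and WT libraries and blocks on the replicate numbers in their titles, the value was 0.76 ± 0.14 and passed with edgeR adjusted p = 0.0419, where 3.82% of all genes passed. That pairing was chosen from correlations in these same libraries, so the pass is no independent support. The same block in a fit of all 9 libraries gave Csf1 an edgeR adjusted p of 0.133. Csf1 also passed with DESeq2 (adjusted p = 0.0234) and in edgeR without a filter on low counts (0.0205), where 2.03% and 0.984% of the 31298 genes fitted passed. Left-out libraries moved its edgeR adjusted p between 0.0555 and 0.478. C59A against C59S gave -0.55 ± 0.19 (interval -0.97 to -0.13, edgeR adjusted p = 0.121), with no overlap between the groups, and -0.35 without C59A replicate 3 (0.314). The comparison of C59A against WT gave 0.21 ± 0.19 (edgeR adjusted p = 0.598), and 0.05 without C59A replicate 1.

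The other ligand of the same receptor followed a different order. Il34, a cytokine that also signals through Csf1r, stood at 31.7, 39 and 30 CPM in C59A, 14.3, 10.1 and 9.64 CPM in C59S, and 9.21, 7.13 and 7.62 CPM in WT. It rose in C59A against WT by 2.07 ± 0.19 on the log2 scale (edgeR adjusted p = 9.59e-05) and C59A exceeded C59S by 1.55 ± 0.18 (edgeR adjusted p = 0.000652). Both calls passed in all 25 other settings, including without each library in turn. So the 2 Csf1r ligands had their highest libraries in different genotypes, Csf1 in C59S and Il34 in C59A. The summed level of 10 macrophage markers, Csf1r among them, was 146 to 290 CPM in C59A, 209 to 248 CPM in C59S and 139 to 176 CPM in WT. All 10 had positive fold changes in each allele against WT. By edgeR 1 of 10 passed in C59A against WT (5.7% of all genes) and 0 of 10 in C59S against WT (0%). In the second, 4 of the 10 had an unadjusted p under 0.05, beside 18.1% of all genes. None of the 10 markers was at 0 reads in any library, and their part in the Csf1 and Il34 values was not tested.

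Tnf and Il1b, the 2 inflammatory cytokines, were scarcely read. Tnf (ENSMUSG00000024401, chromosome 17, 35199381 to 35202007, minus strand) had 17, 4 and 9 reads in C59A, 11, 13 and 4 reads in C59S, and 5, 5 and 9 reads in WT. C59A replicate 1 alone held 17 of the 30 C59A reads, and the groups overlapped. Tnf did not reach the count filter, and in a fit without that filter its log2 fold changes were 0.88 ± 0.68 in C59A against WT, 0.53 ± 0.68 in C59S against WT and 0.35 ± 0.66 in C59A against C59S (edgeR adjusted p = 0.645, 0.763 and 0.873). The first interval ran from -0.48 to 2.24, and no difference was detected.

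Il1b (ENSMUSG00000027398, chromosome 2, 129364570 to 129371139, minus strand) had 53, 31 and 33 reads in C59A, 27, 43 and 30 reads in C59S, and 26, 52 and 26 reads in WT. As CPM these were 3.2, 1.75 and 1.57 in C59A, 1.01, 1.94 and 2.02 in C59S, and 1.09, 2.61 and 1.24 in WT. The groups overlapped fully, with C59A replicate 1 highest and WT replicate 2 next. The log2 fold changes were 0.40 ± 0.44 in C59A against WT, -0.003 ± 0.44 in C59S against WT and 0.40 ± 0.44 in C59A against C59S, with edgeR adjusted p of 0.66, 0.998 and 0.64. The widest of these intervals ran from -0.56 to 1.37. Single libraries moved these values: C59A against WT gave 0.02 without C59A replicate 1 and 0.89 without WT replicate 2, and C59A against C59S gave 0.03 without C59A replicate 1. The antisense gene Il1bos overlaps Il1b and held 0 to 21 reads per library. The strand setting of the counting is not given in the sources used here, so the reads of each such pair may not be told apart.

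Tlr2, the receptor for bacterial lipoproteins, and Traf1, an adaptor that binds TNF receptor family members, gave no call. Tlr2 (ENSMUSG00000027995, chromosome 3, 83836272 to 83841767, minus strand) was at 3.2, 6 and 1.52 CPM in C59A, 4.1, 3.56 and 2.83 CPM in C59S, and 2.02, 2.31 and 2.86 CPM in WT. The C59A libraries spanned the whole range of the 9, with the highest and the lowest value. The log2 fold change of C59A against WT was 0.57 ± 0.41 (edgeR adjusted p = 0.471) and was -0.03 without C59A replicate 2. C59S against WT gave 0.55 ± 0.41 (edgeR adjusted p = 0.499), and C59A against C59S gave 0.02 ± 0.41 (0.987), which turned to -0.59 without C59A replicate 2 and to -0.11 without C59S replicate 3.

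Traf1 (ENSMUSG00000026875, chromosome 2, 34941750 to 34961772, minus strand) was read at 10.3, 7.92 and 9.24 CPM in C59A, 10.3, 10.9 and 10.7 CPM in C59S, and 7.99, 9.14 and 9.95 CPM in WT. The C59S libraries lay above the other 6, though the highest C59A library (10.25 CPM) was close to the lowest C59S library (10.28 CPM). The C59S against WT value was 0.23 ± 0.16 on the log2 scale (interval -0.12 to 0.58, edgeR adjusted p = 0.463), and that of C59A against WT was 0.02 ± 0.16 (interval -0.33 to 0.37, edgeR adjusted p = 0.967). C59A against C59S gave -0.22 ± 0.16 (edgeR adjusted p = 0.462).

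Sod2 and Mmp9, a mitochondrial enzyme that removes superoxide and a gelatinase that cuts matrix proteins, are the members with the most and nearly the fewest reads. Sod2 (ENSMUSG00000006818, chromosome 17, 13007839 to 13018119, plus strand) was read at 281, 294 and 369 CPM in C59A, 240, 290 and 274 CPM in C59S, and 221, 261 and 270 CPM in WT. All 3 C59A libraries exceeded all 3 WT libraries, with C59A replicate 3 the highest. The log2 fold change of C59A against WT was 0.33 ± 0.15 (interval -0.005 to 0.67, edgeR adjusted p = 0.245). It was 0.20 without C59A replicate 3 and 0.09 with library totals alone. C59S against WT gave 0.10 ± 0.15 (interval -0.24 to 0.43, edgeR adjusted p = 0.771) and C59A against C59S gave 0.23 ± 0.15 (edgeR adjusted p = 0.404). Sod2 was the only member of 9 whose C59A libraries did not overlap with WT, beside 12.6% of all genes that lay wholly higher.

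Mmp9 (ENSMUSG00000017737, chromosome 2, 164940780 to 164955850, plus strand) had 22, 8 and 29 reads in C59A, 19, 32 and 35 reads in C59S, and 9, 9 and 17 reads in WT. Its levels were 1.33, 0.453 and 1.38 CPM in C59A, 0.708, 1.44 and 2.36 CPM in C59S, and 0.379, 0.452 and 0.809 CPM in WT. C59S replicate 3 was the highest and WT replicate 1 the lowest, and the groups overlapped. Mmp9 had the largest estimate of the members tested, with 1.42 ± 0.56 for C59S against WT (log2, interval 0.20 to 2.65, edgeR adjusted p = 0.224). C59A against WT gave 0.95 ± 0.57 (edgeR adjusted p = 0.373), with the widest interval of the members tested, -0.295 to 2.19. C59A against C59S gave -0.47 ± 0.54 (edgeR adjusted p = 0.651). Neutrophils store this enzyme, and the summed level of 7 neutrophil markers was 14.5 to 17.3 CPM in C59A, 4.6 to 8.69 CPM in C59S and 2.61 to 4.14 CPM in WT. Of the 5 neutrophil markers tested, 3 rose in C59A against WT, beside 3.24% of all genes. In C59S against WT 0 passed by edgeR (0% of all genes), with 1 of 5 at an unadjusted p under 0.05 (18.1%). Up to 1 of the 7 was at 0 reads in single C59A libraries and up to 3 of the 7 in single C59S and WT libraries. The summed markers were highest in C59A and the Mmp9 mean was highest in C59S. Among the markers Ly6g departed from the sum, with 3 reads in C59A, 2 in C59S and 8 in WT. The part of the neutrophil markers in the Mmp9 values was not tested.

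Irf1, the transcription factor that interferon gamma and NF-kB both induce and that drives immunoproteasome and antigen presentation genes, was read lower in every C59A library than in any C59S library. Irf1 (ENSMUSG00000018899, chromosome 11, 53770014 to 53778374, plus strand) stood at 27.7, 26.7 and 17.3 CPM in C59A, 31.1, 37.4 and 40.7 CPM in C59S, and 21.7, 21.6 and 31.9 CPM in WT. WT replicate 3 lay just above the lowest C59S library, so C59S and WT overlapped. C59A against C59S gave a log2 fold change of -0.61 ± 0.21 (interval -1.06 to -0.15, edgeR adjusted p = 0.113). C59S against WT gave 0.54 ± 0.21 (interval 0.09 to 0.99, edgeR adjusted p = 0.217, and 0.0508 in the paired fit of these 2 groups), and C59A against WT gave -0.07 ± 0.21 (edgeR adjusted p = 0.893), with a positive sign without C59A replicate 3 (0.12) or WT replicate 3 (0.15). Gm17334, a gene on the other strand inside Irf1, held 8 to 22 reads.

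Of 15 regulators and targets of Irf1, all tested, 14 had negative fold changes in C59A against C59S, with a median of -0.35. Psmb10 (-0.84 ± 0.20, edgeR adjusted p = 0.0346) and Psmb9 (-0.92 ± 0.24, edgeR adjusted p = 0.0486), catalytic subunits of the immunoproteasome, were lower in C59A and the other 13 did not pass. Psmb10 stood at 24.4, 32.3 and 25.7 CPM in C59A, 39.8, 48.7 and 59.6 CPM in C59S, and 25.8, 26.6 and 40 CPM in WT. The call of Psmb10 was lost without C59A replicate 1 (0.127) or 3 (0.129), or C59S replicate 2 (0.0894) or 3 (0.138), and that of Psmb9 without C59A replicate 1 (0.129), 2 (0.0754) or 3 (0.175), or C59S replicate 2 or 3 (0.148 each). With RLE factors 4 of the 15 passed, with DESeq2 5, and with limma on log2(FPKM + 1) 0. Of the genes fitted there, 5.8% of 17114, 5.5% of 31298 and 4.3% of 15273 passed, and 5.91% in the main fit. For C59S against WT 14 of 15 were positive, with a median of 0.29. Over all 9 libraries 0 passed by edgeR, with 5 at an unadjusted p under 0.05 and 2 called by DESeq2, while 3 passed in the paired fit. Of all genes 0% passed by edgeR and 18.1% had an unadjusted p under 0.05. DESeq2, fitted without the count filter, called 636 of 31298 genes (2.03%), and the paired fit called 638 of 16685 (3.82%). The 2 of the 15 with the smallest p were Psmb8 (0.76 ± 0.20, edgeR adjusted p = 0.139) and Gbp2 (0.85 ± 0.25, 0.151). The paired fit, whose pairing was chosen from these same libraries, called both, with edgeR adjusted p of 0.0343 for Psmb8 and 0.0423 for Gbp2. The same block in a fit of all 9 libraries called neither (0.103 and 0.121). Without WT replicate 3 these gave 0.99 and 1.11 with edgeR adjusted p of 0.0262 and 0.0396, and 4 of the 15 passed, beside 4.17% of all genes. In C59A against WT 0 of 15 passed by edgeR or DESeq2 and 0 had an unadjusted p under 0.05. Of all genes 5.7% passed by edgeR there and 21% had an unadjusted p under 0.05. Of the 15, 10 were negative, and the 2 of smallest p were Ifngr1 (0.32 ± 0.16, edgeR adjusted p = 0.27) and Irf9 (-0.32 ± 0.16, 0.291).

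**Figure D3:**
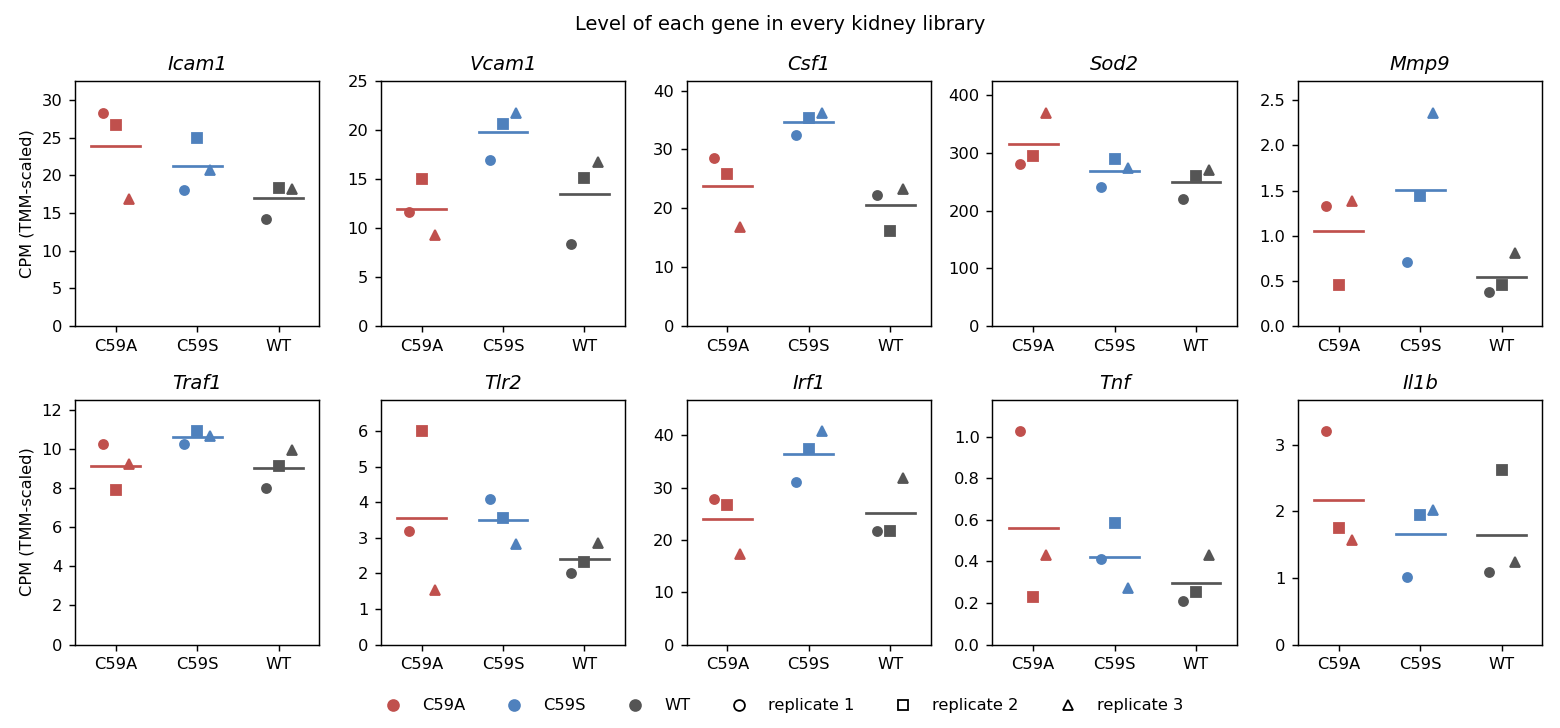
CPM of each of the 10 genes in every library, C59A, C59S and WT from left to right, with the group mean as a bar and a marker shape for each replicate number. The C59S points of Csf1 (32.5 to 36.2 CPM) lie above all other libraries, and the C59A points of Tlr2 span 1.52 to 6 CPM.

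The overlap of the libraries was counted without a model. Of the members, Csf1, Vcam1 and Traf1 were higher in every C59S library than in every WT library, 3 of 9 members beside 11.2% of all genes tested, and no member lay wholly lower, beside 11.3%. In C59A against C59S, Irf1, Csf1, Vcam1 and Traf1 were lower in every C59A library, 4 of 9 members beside 14.5%. No member was higher there, beside 14.7%. In C59A against WT, Sod2 was the only one, 1 of 9 beside 12.6%, with none wholly lower, beside 12%.

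**Figure D4:**
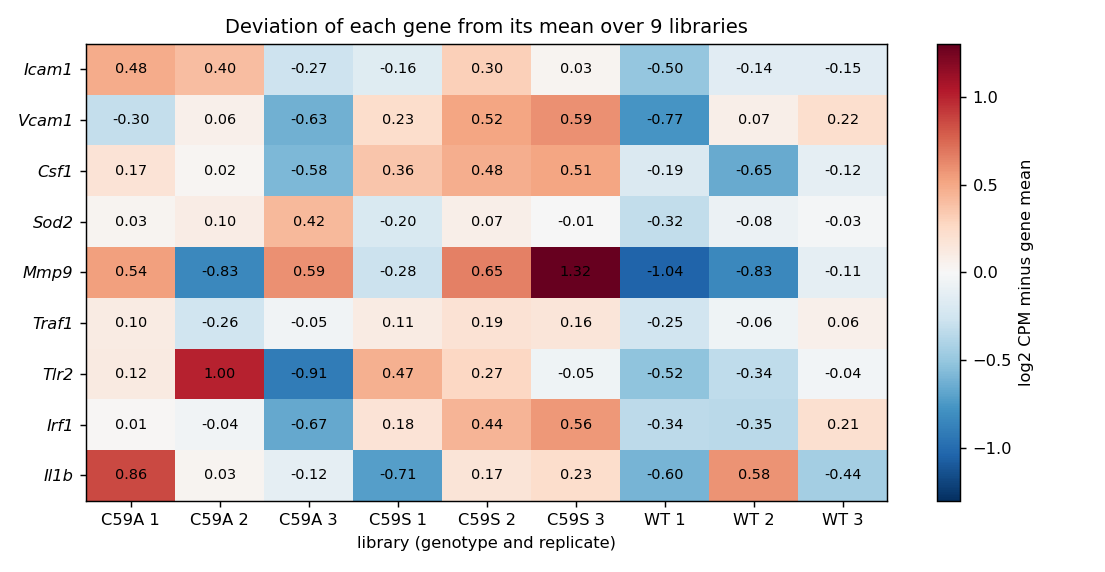
Log2 CPM of the 9 tested genes minus each gene's mean over the 9 libraries, with C59A, C59S and WT from left to right. WT replicate 1 is below the mean for all 9 genes, and C59S replicate 2 is above it for all 9.

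Single libraries carried much of the variation of the members. The mean deviation of the 9 tested genes from their own means, in log2 CPM, was 0.22, 0.05 and -0.24 in C59A replicates 1 to 3, -0.001, 0.34 and 0.37 in C59S, and -0.50, -0.20 and -0.04 in WT. WT replicate 1 was below the mean for all 9 genes and the lowest library for 4 of them. C59S replicate 3, the library with the largest mitochondrial share, was the highest for 4 of 9, namely Vcam1, Csf1, Mmp9 and Irf1. C59A replicate 3 was above the mean for only 2 genes, Sod2 and Mmp9, and below it for Icam1, Vcam1, Csf1, Traf1, Tlr2, Irf1 and Il1b. Without WT replicate 1, where Tnf also passed the count filter, the member median of C59S against WT was 0.32 and 1 of the 10 had an unadjusted p under 0.05. Without C59S replicate 3 the median was 0.47, also with 1 of 10. The count over all genes fell in the same fits, from 3092 of 17114 to 1959 of 17467 and 1705 of 17707, so the fall was not particular to the members. Without C59A replicate 1 the member median of C59A against WT was 0.05.

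Other NF-kB targets passed the test at shares near those of all genes, which were 5.7%, 0% and 5.91% in C59A against WT, C59S against WT and C59A against C59S. Of 47 further targets of the factor, from feedback inhibitors to chemokines, 36 had enough reads to be tested. In C59A against WT Bcl3 rose and 35 did not pass, with 19 of 36 positive and a median of 0.06. Bcl3, a nuclear IkB protein that binds p50 homodimers, stood at 21.7, 15.1 and 13.6 CPM in C59A and 9.51, 10.4 and 7.81 CPM in WT, a log2 fold change of 0.86 ± 0.19 (edgeR adjusted p = 0.0227). That call was lost without C59A replicate 1 (0.0902), WT replicate 1 (0.069) or WT replicate 3 (0.0631). For C59S against WT 0 of 36 passed by edgeR, with 28 positive and a median of 0.26. At an unadjusted p under 0.05 were 5 of the 36, beside 18.1% of all genes. DESeq2 called 2, beside 2.03% of the 31298 genes it fitted. The 2 of smallest p by edgeR in C59S against WT were Gadd45b (0.69 ± 0.18, edgeR adjusted p = 0.139), a stress-induced regulator of survival, and Cfb (-1.29 ± 0.39, 0.156), complement factor B. Gadd45b passed in the paired fit (0.67, 0.0448), whose pairing was chosen from these same libraries, but not with the block in all 9 libraries (0.129). Cfb passed without WT replicate 3 (-1.59, 0.0323).

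Between C59A and C59S, Cflar and Nos2 passed among the 36 and 34 did not, with 13 positive and a median of -0.14. Cflar, an inhibitor of caspase-8, was higher in C59A by 0.48 ± 0.12 (edgeR adjusted p = 0.0395). Nos2, the inducible nitric oxide synthase, had 7, 3 and 11 reads in C59A and 37, 19 and 37 reads in C59S, and was lower in C59A by a log2 fold change of -2.03 ± 0.52 (edgeR adjusted p = 0.0444). The Cflar call was lost without any 1 of the C59A or C59S libraries (0.0619 to 0.138). That of Nos2 was lost without C59A replicate 1 (0.126), 2 (0.0941) or 3 (0.0869), C59S replicate 1 (0.0702) or 3 (0.174), or WT replicate 1 (0.0657).

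Receptors, inhibitors and processing enzymes that work with the members gave a few calls in C59A against WT. Of 31 such genes 29 were tested, 3 rose and 26 did not pass, with a median of 0.06. Of all genes 5.7% passed there, and 3.24% were higher in C59A. Besides Il34, Itgam, the alpha chain of an integrin that binds Icam1, rose by 1.64 ± 0.39 on the log2 scale (edgeR adjusted p = 0.0317) and stood at 5.37, 6.56 and 3.38 CPM in C59A and 2.19, 1 and 1.67 CPM in WT. Sod1, the cytosolic superoxide dismutase, rose by 0.57 ± 0.15 (edgeR adjusted p = 0.0466). The Itgam call was lost without C59A replicate 1 (0.0942) or 2 (0.0883) or WT replicate 1 (0.0525), 2 (0.0841) or 3 (0.069), and that of Sod1 without any 1 of the 9 libraries (0.0619 to 0.151). Itgam marks macrophages and neutrophils, whose markers are given above. Set against WT, C59S had 0 of 29 passing by edgeR, beside 0% of all genes, with 24 positive and a median of 0.20. At an unadjusted p under 0.05 were 6 of the 29, near the 18.1% of all genes. DESeq2 called 2, beside 2.03% of the 31298 genes it fitted. The 2 of smallest p were Itgb1 (0.56 ± 0.15, edgeR adjusted p = 0.142), the beta chain that pairs with alpha4 to bind Vcam1, and Mmp14 (0.78 ± 0.21, 0.142), a membrane protease. Itgb1 passed in the paired fit (0.54, 0.0448), whose pairing was chosen from these same libraries, but not with the block in all 9 libraries (0.0963). Itgb1 also passed without WT replicate 3 (0.66, 0.0447), and Mmp14 without C59S replicate 1 (1.02, 0.0264). Between C59A and C59S Il34 alone passed of 29, beside 5.91% of all genes, and 19 had negative fold changes, with a median of -0.14.

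**Figure D5:**
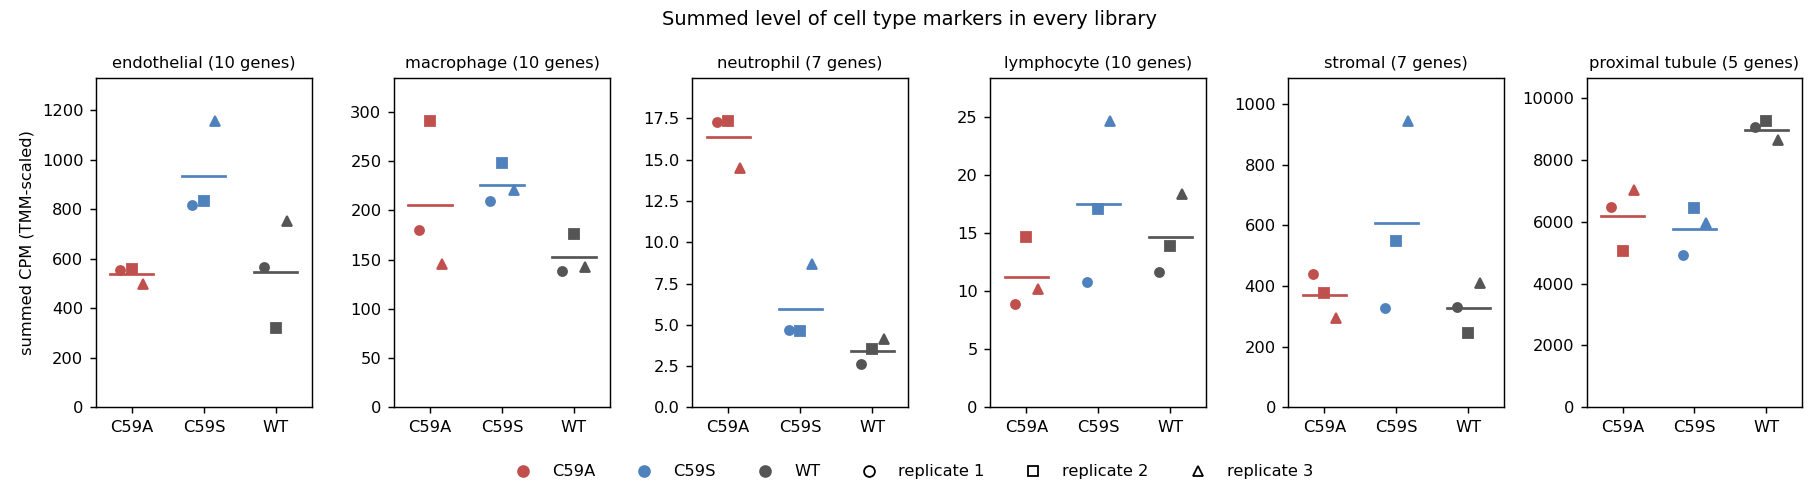
Summed CPM of 6 marker lists in every library, C59A, C59S and WT from left to right, with the group mean as a bar. Endothelial sums are highest in C59S (819 to 1155 CPM), neutrophil sums in C59A (14.5 to 17.3 CPM) and proximal tubule sums in WT (8634 to 9236 CPM).

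Marker levels of the other cell types are given for the same libraries. Stromal markers summed to 294 to 440 CPM in C59A, 329 to 943 CPM in C59S and 246 to 409 CPM in WT, with C59S replicate 3 at the top. T, B and NK cell markers summed to 8.87 to 14.7 CPM in C59A, 10.8 to 24.6 CPM in C59S and 11.7 to 18.4 CPM in WT, and the pan-leukocyte gene Ptprc lay at 10.4 to 19.2, 12 to 22 and 10.6 to 20.3 CPM in the same order of genotypes. The 5 proximal tubule markers summed to 5042 to 7021 CPM in C59A, 4933 to 6441 CPM in C59S and 8634 to 9236 CPM in WT. Adipocyte markers summed to 155 to 229 CPM in C59A, 151 to 1148 CPM in C59S and 27.1 to 63.2 CPM in WT. Podocyte markers summed to 182 to 302, 343 to 564 and 267 to 520 CPM, loop and distal tubule markers to 2112 to 3025, 2169 to 3451 and 2993 to 4665 CPM, and collecting duct markers to 437 to 818, 456 to 742 and 392 to 531 CPM, in C59A, C59S and WT. The part of these differences in the values of the members was not tested.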

How the data were processed

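Kidney RNA of 9 libraries, grouped by genotype, was prepared with TRIzol and the NEBNext Ultra RNA kit, per the labels' protocols. The submitters' processing notes name CASAVA 1.8, fastp, HISAT2 2.0.5 with GRCm38, featureCounts 1.5.0-p3 and DESeq2 1.20.0, without parameters. The deposited counts per gene are raw whole numbers, and the deposited FPKM values equal count over gene length and a constant per library (0.802 to 1.15 times the total).

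Genes were filtered with filterByExpr, scaled with TMM factors (0.798 to 1.12) and fitted over all 9 libraries with edgeR 4.0.16 (robust quasi-likelihood, R 4.3.3) and Benjamini-Hochberg adjustment at 0.05. The standard error is the log2 fold change over the square root of F. Alternatives used DESeq2 1.42.0 and limma 3.58.1, and the code was tested on simulated counts. No libraries of a genotype were duplicates (chi-square per degree of freedom of 24.7 or more).

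C59S and WT libraries with the same replicate number deviated together (correlations of 0.318, 0.195 and 0.256), so a paired fit of these groups is given where it changes a call. The other genotype pairs gave -0.288 to 0.05. The pairing rests on these correlations, taken from the same libraries as the calls, and not on a stated design. The replicate numbers are those of the titles. The column names of the deposited counts carry other numbers, and by them no C59S library shares the number of its WT partner.

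The members, lists and motifs were chosen with earlier results of these data known. All members are named, and of each wider list up to 4 called genes of smallest p per comparison, or 2 where none was called. Intervals cover counting error and the spread of these libraries only.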

Additional observations from a re-analysis of the deposited data

Results flagged for a closer look

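No member differed between the alleles by the test, and the 5 results here belong to genes that work with the members. Each was picked out because its change against WT differed between C59A and C59S by the direct test of the 2 alleles (edgeR, Benjamini-Hochberg adjusted p under 0.05). For Il34 the C59A level exceeded the C59S level by 1.55 on the log2 scale, where the C59A value against WT was 2.07 and the C59S value against WT was 0.51. Cflar was higher in C59A by 0.48, where the values against WT were 0.28 in C59A and -0.20 in C59S. Nos2 differed by -2.03, with -1.28 in C59A and 0.75 in C59S against WT. Psmb10 differed by -0.84, with -0.17 in C59A and 0.68 in C59S against WT. Psmb9 differed by -0.92, with -0.32 in C59A and 0.59 in C59S against WT. The alleles cannot be told apart from the sex-linked difference between these libraries.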

How the results depend on the processing

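Tnf, Mmp9 and Il1b had the fewest reads of the members, and the part of depth in their values was not tested. The count of members called stayed at 0 in all other settings except those named here. In C59S against WT it was 1, namely Csf1, with no low-count filter, with DESeq2 and with the replicate block in a fit of only the 2 groups. Of the genes fitted in these 3 settings, 0.984% of 31298, 2.03% of 31298 and 3.82% of 16685 passed. In C59A against C59S it was 1, namely Vcam1, in a fit of only the 2 groups without the block, beside 7.59% of all genes. The replicate block in a fit of all 9 libraries gave 0 members in each comparison and changed no other call of a member. Leaving out each library in turn gave 0 members in each comparison (lowest 0, highest 0).

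These members changed sign in some settings, and none of the values passed. Tlr2 in C59A against WT, at 0.57, was furthest from 0. In C59A against WT Traf1 (0.02) was -0.009 with upper quartile factors and -0.21 with library totals alone, and ran from -0.067 to 0.111 over the left-out libraries. Csf1 was -0.019 with library totals alone, and Irf1 (-0.07) was 0.044 with limma voom and ran from -0.185 to 0.146 over the left-out libraries. Vcam1 ran from -0.417 to 0.029 and Tlr2 from -0.031 to 0.943 over them. In C59S against WT Sod2 was -0.10 with library totals alone. Il1b (-0.003) was 0.002 with upper quartile factors or without mitochondrial genes, 0.003 with no filter, 0.001 with DESeq2, 0.033 with voom or the replicate block in all 9 libraries and 0.018 with the block in the 2 groups. It was 0.021 on log2(FPKM + 1) with or without a filter and 0.055 on log2(FPKM + 0.1), and ran from -0.23 to 0.49 over the left-out libraries. In C59A against C59S Tlr2 (0.02) was -0.009 with upper quartile factors, -0.034 with library totals alone, -0.18 with voom, -0.036 on log2(FPKM + 1) with or without a filter and -0.13 on log2(FPKM + 0.1). It was -0.074 and -0.136 with the replicate block in all 9 libraries and in the 2 groups, and ran from -0.59 to 0.39 over the left-out libraries. Scaling by library totals alone put the all-gene median at -0.26 in C59A against WT and -0.18 in C59S against WT. The cause of these changes was not tested. Besides left-out libraries, Il34 kept its calls, while Bcl3 and Cflar lost theirs in 3 other settings each, Nos2 and Psmb10 in 4 each, Itgam in 5, Psmb9 in 6 and Sod1 in 9. The endothelial markers Pecam1 and Cdh5 lost their calls in C59A against C59S in 5 and 6 other settings.

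The count over all genes in C59A against WT was 975, with 1567 by DESeq2, 410 by limma on log2(FPKM + 1) with no filter, 390 with the block in the 2 groups and 502 to 934 over the left-out libraries. In C59S against WT it was 0, with 638 in the paired fit, 636 by DESeq2, 308 with no filter, 20 with library totals alone and 0 to 737 over the left-out libraries. In C59A against C59S it was 1012, with 1721 by DESeq2, 670 with library totals alone, 278 by limma on log2(FPKM + 1) with no filter, 657 and 670 by limma with the filter, 334 with the block in the 2 groups and 318 to 1307 over the left-out libraries.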
